A study of Homo sapiens with 15 samples.

Results

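The genes described here make cholesterol or handle it. They were 30 genes of 58381 in the count tables, chosen by name: 19 enzymes that lead from acetyl-CoA units to cholesterol, 4 genes that sense sterols and switch the pathway, and 7 that move, export, store or spare cholesterol. All 30 were found by Ensembl identifier and all 30 had enough counts to be tested. They were followed through bulk RNA-seq of VCaP, an established prostate cancer cell line, in 15 libraries from 5 sublines with 3 libraries each.

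The sublines model a course of treatment, and all of them grew in medium with charcoal-stripped serum (DCC-FBS). VCaP-T is the androgen-sensitive subline, kept with 10 nM testosterone for 7 months. VCaP-CT descends from VCaP-T after 10 more months at 0.1 nM testosterone, the model of androgen deprivation therapy (ADT). VCaP-CT-ER descends from VCaP-CT under 10 µM enzalutamide (ENZ), a blocker of androgen signalling, until growth resumed. VCaP-CT-BR descends from VCaP-CT under bicalutamide, an older blocker. Its labels also name ENZ, once bicalutamide no longer held growth, so that how far VCaP-CT-BR had met ENZ is unclear. VCaP-CT-BR-ER is the multiresistant subline that came of that line under ENZ. The treatment label of each derived subline gives 10 nM testosterone for the second 10 months, whereas the protocol text gives 0.1 nM. Steps are named as follows: the ADT step is VCaP-CT against VCaP-T, the direct ENZ step is VCaP-CT-ER against VCaP-CT, the bicalutamide step is VCaP-CT-BR against VCaP-CT, and the later ENZ step is VCaP-CT-BR-ER against VCaP-CT-BR. Each subline is a separate long-term derivation made once, so treatment, time in culture and derivation cannot be told apart. The replicates are called biological, but nothing describes their separate culture, and p-values measure only the spread between these libraries.

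Cells build cholesterol from acetyl-CoA through mevalonate, isoprenoid units, squalene and lanosterol. When sterols in the endoplasmic reticulum are scarce, SCAP escorts the transcription factor SREBP2 to the Golgi for cleavage, and the released factor switches on most genes of the route. When sterols are plentiful, the INSIG proteins hold SCAP back, and oxysterols activate the liver X receptors, which raise the exporters ABCA1 and ABCG1 and the ubiquitin ligase MYLIP. Prostate cells hold much cholesterol, which is also the starting material of androgens.

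Libraries held 33.7 M to 46.9 M counted fragments. Over 19621 tested genes the lowest correlation of log2 levels within a subline was 0.991, and the highest between sublines was 0.98. Levels are CPM, counts relative to the library total (per 1e6 counts) scaled by the TMM factors of edgeR, and they are compared between genes only per kilobase of exon. Of 8 markers of luminal prostate epithelium, KLK2, HOXB13, KRT8, KRT18, EPCAM and TMPRSS2 held 87.3 CPM or more in every library. These levels differed between sublines. By edgeR at an adjusted p under 0.05, 2 of the 8 were higher and 6 lower in VCaP-CT than in VCaP-T. The shares over all tested genes were 33.1% and 32.2%. TMPRSS2 held 633 to 676 CPM in VCaP-T and 87.3 to 138 CPM in the derived sublines. KLK3, an androgen target, went from 3532 to 3617 CPM in VCaP-T to 32.3 to 34.5 CPM in VCaP-CT and held 499 to 535 CPM in VCaP-CT-ER, 13.5 to 14.4 CPM in VCaP-CT-BR and 38.1 to 42.0 CPM in VCaP-CT-BR-ER, and FOLH1 lay between 1.74 and 46.2 CPM. The summed level of these markers was 20909 to 21803 CPM in VCaP-T, 9322 to 10093 CPM in VCaP-CT, 9921 to 10799 CPM in VCaP-CT-ER, 6219 to 6589 CPM in VCaP-CT-BR and 4642 to 4861 CPM in VCaP-CT-BR-ER. Most of this sum was KLK2, at 14148 to 14767 CPM in VCaP-T and 3274 to 3459 CPM in VCaP-CT-BR-ER. The sum therefore mainly follows KLK2, and HOXB13 went from 560 to 613 CPM in VCaP-T to 659 to 760 CPM in VCaP-CT. The 12 markers of fibroblasts, endothelium, blood and hepatocytes summed to 20.8 to 25.3 CPM in VCaP-T and 21.7 to 34.1 CPM in the derived sublines. CD3E had no count in any library, and CDH5 and PTPRC reached at most 1 and 2 counts. The sum holds moves in both directions. ALB, the albumin gene, held 0.991 to 1.53 CPM in VCaP-T and 13.2 to 32.9 CPM in the derived sublines. VWF held 10.2 to 13.2 CPM in VCaP-T and 0.0497 to 0.167 CPM in VCaP-CT-ER. COL1A1 held 5.83 to 7.27 CPM in VCaP-T and 0.397 to 0.456 CPM in VCaP-CT-ER. PECAM1 held 2.05 to 3.10 CPM in VCaP-T and VCaP-CT together and 0.0248 to 0.124 CPM in VCaP-CT-ER. The part of these marker levels in the results was not tested. In bulk libraries fewer cells of a kind and less RNA per cell cannot be told apart.

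Promoter letters are shown first, and their part in transcription in these cells was not tested. RefSeq promoter windows (GRCh38.p14, 250 bases before to 50 after the start) were found for 26 of the 30 genes, not for ACAT2, FDFT1, SQLE and ABCG1. The windows were searched on both strands for the sterol regulatory element TCACNCCAC and its core CACNCCAC, the NF-Y box CCAAT, the Sp1 box GGGCGG and the E-box CACGTG. The core lies inside the longer element, so each match of the element also counts for the core. TCACNCCAC was found in 1 of the 26, SREBF2, and in 1.15% of 27305 promoters, and CACNCCAC in 4 of the 26 and 5.74%. CCAAT was found in 18 of the 26 and 35.7% of all promoters, GGGCGG in 24 of the 26 and 44.6%, and CACGTG in 5 of the 26 and 7.43%. The stretches below run 5′ to 3′ in the direction of the gene and end before its first counted exon. Capitals mark TCACNCCAC and CCAAT on either strand, the latter reading ATTGG where it lies on the other strand. SREBF2 is shown as the gene with an exact match of TCACNCCAC, at chr22:41832855-41833078 on the plus strand. MSMO1 at chr4:165327419-165327622 (plus strand) and HMGCS1 at chr5:43313513-43313662 (minus strand), the pair that rose most in the direct ENZ step, were chosen after their values were seen, as was STARD4 at chr5:111512591-111512785 (minus strand), which fell.
SREBF2: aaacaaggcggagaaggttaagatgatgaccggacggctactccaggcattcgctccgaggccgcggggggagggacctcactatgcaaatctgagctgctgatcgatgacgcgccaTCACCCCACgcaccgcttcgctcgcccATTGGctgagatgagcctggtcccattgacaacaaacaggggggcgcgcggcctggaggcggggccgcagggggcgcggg
MSMO1: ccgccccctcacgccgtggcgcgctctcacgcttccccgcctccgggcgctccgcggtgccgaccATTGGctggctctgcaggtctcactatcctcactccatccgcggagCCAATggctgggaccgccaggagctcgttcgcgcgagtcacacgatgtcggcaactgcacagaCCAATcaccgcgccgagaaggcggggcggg
HMGCS1: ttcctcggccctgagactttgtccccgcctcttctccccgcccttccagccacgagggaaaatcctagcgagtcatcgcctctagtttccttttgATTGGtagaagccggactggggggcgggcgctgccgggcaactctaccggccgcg
STARD4: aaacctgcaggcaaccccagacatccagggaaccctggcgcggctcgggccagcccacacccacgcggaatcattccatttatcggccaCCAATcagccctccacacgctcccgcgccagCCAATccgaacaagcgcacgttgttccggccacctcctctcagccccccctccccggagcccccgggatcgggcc
The sterol element of SREBF2 began at base -133, counted from the RefSeq start. MSMO1 held 3 CCAAT boxes in the stretch shown, STARD4 held 2, and SREBF2 and HMGCS1 held 1 each. MSMO1 and HMGCS1 rose and STARD4 fell in these cells, and all 3 stretches held CCAAT and lacked TCACNCCAC. A match describes the letters only. Looser forms of the sterol element were not searched, so a missing match does not show that a gene lacks one.

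The enzymes of synthesis rose over the course of treatment, while genes of transport and storage went both ways. The 19 enzymes together held 1548 to 1583 CPM in VCaP-T, 2258 to 2379 CPM in VCaP-CT, 2686 to 2826 CPM in VCaP-CT-ER, 2388 to 2434 CPM in VCaP-CT-BR and 2421 to 2474 CPM in VCaP-CT-BR-ER. VCaP-T stood lowest and VCaP-CT-ER highest, VCaP-CT-BR overlapped with VCaP-CT-BR-ER, and the highest VCaP-CT library lay just under both. A large part of it was TM7SF2, which peaked in VCaP-CT, as LSS did. Without TM7SF2 the remaining 18 enzymes summed to 1198 to 1216 CPM in VCaP-T, 1481 to 1578 CPM in VCaP-CT, 1787 to 1850 CPM in VCaP-CT-BR, 2098 to 2133 CPM in VCaP-CT-BR-ER and 2176 to 2357 CPM in VCaP-CT-ER, with no overlap between sublines. Setting TM7SF2 aside was chosen after its values were seen, and long genes weigh more in such sums.

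**Figure D1:**
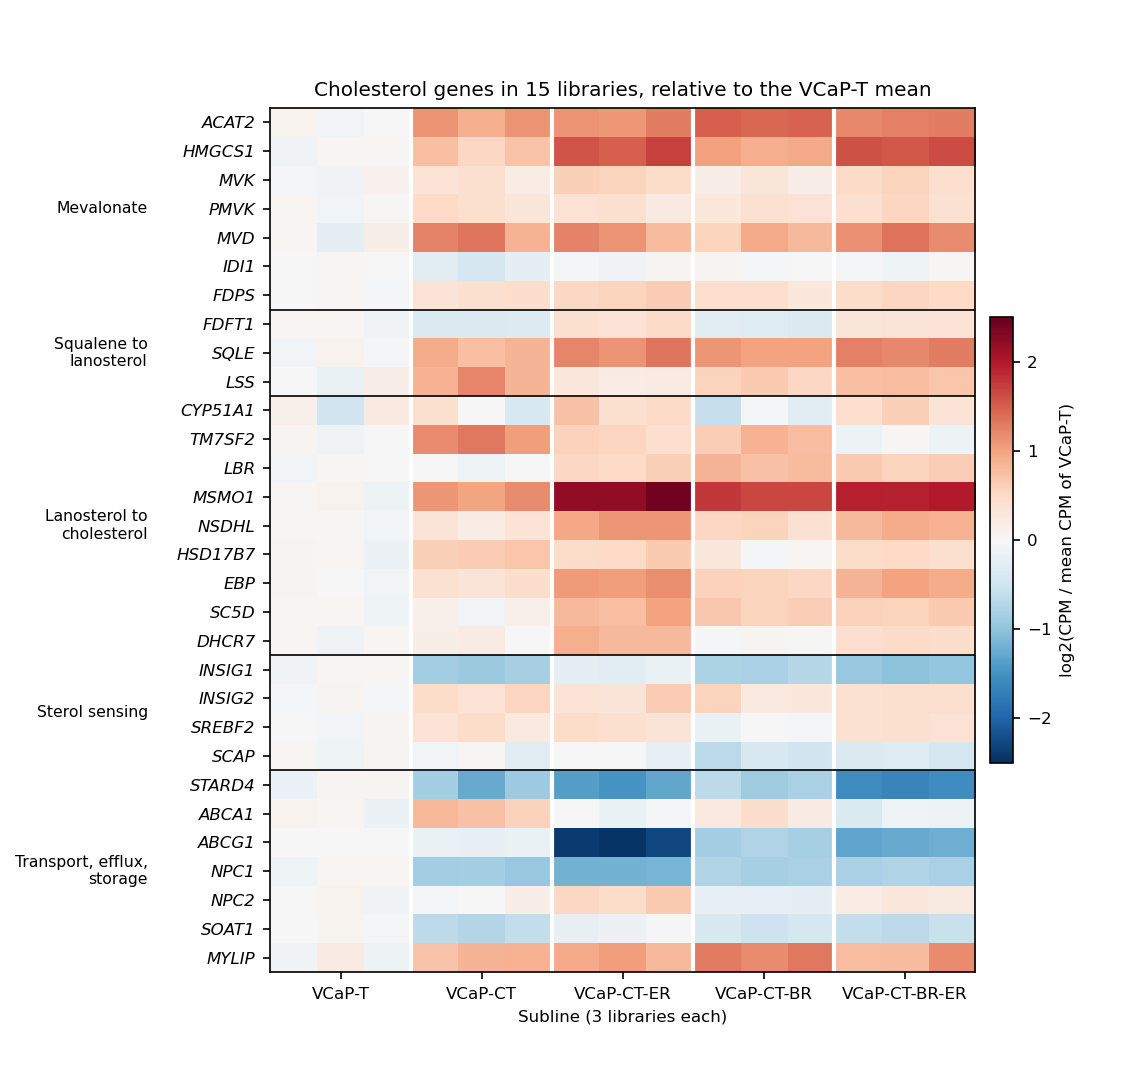
Log2 ratio of each library's CPM to the mean CPM of VCaP-T for the 30 genes (rows, grouped by role) in 15 libraries (columns, 3 per subline). Red is higher and blue lower than VCaP-T; MSMO1 and HMGCS1 are red in all derived sublines and ABCG1 and STARD4 are blue, most so in VCaP-CT-ER for ABCG1.

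Counted gene by gene, 17 of the 30 were higher and 7 lower in VCaP-CT than in VCaP-T by edgeR at an adjusted p under 0.05, with 33.1% of all tested genes higher and 32.2% lower. In the direct ENZ step 16 rose and 6 fell, with 29.6% and 31.2% of all genes. In the bicalutamide step 11 rose and 9 fell, with 26.1% and 27.0% of all genes. In the later ENZ step 13 rose and 9 fell, with 21.2% and 21.7% of all genes. Against VCaP-T, 22 of the 30 were higher and 5 lower in VCaP-CT-ER, where 34.3% of all genes were higher and 34.7% lower. In VCaP-CT-BR-ER 21 were higher and 6 lower, where 34.9% of all genes were higher and 35.3% lower. Replicates were close, with a biological coefficient of variation of 0.061, and most tested genes passed in the comparisons with VCaP-T.

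The enzymes made up most of the rises. Of the 19, 13 rose and 2 fell in VCaP-CT against VCaP-T, 13 rose and 2 fell in the direct ENZ step, 9 rose and 4 fell in the bicalutamide step, and 11 rose and 3 fell in the later ENZ step. Against VCaP-T, 18 of the 19 were higher and 0 lower in VCaP-CT-ER, and 17 were higher and 0 lower in VCaP-CT-BR-ER. Both counts share the VCaP-T libraries, and 34.3% and 34.9% of all genes were higher there. As shares, 68.4% of the enzymes rose in the ADT step (33.1% of all genes), 68.4% in the direct ENZ step (29.6%), 47.4% in the bicalutamide step (26.1%) and 57.9% in the later ENZ step (21.2%). Of the 11 other genes, 4 were higher and 5 lower in VCaP-CT-ER than in VCaP-T, and 4 were higher and 6 lower in VCaP-CT-BR-ER. In VCaP-CT-ER these were 36.4% and 45.5% of the 11, beside 34.3% and 34.7% of all genes. The median log2 change of all 30 against VCaP-T was 0.54 in VCaP-CT-ER, and it was 0.45 in VCaP-CT-BR-ER, beside 0.01 over all genes in both. For the single steps it was 0.33 in VCaP-CT against VCaP-T (0.03 over all genes), 0.20 in the direct ENZ step (-0.02), 0.01 in the bicalutamide step (-0.02) and 0.13 in the later ENZ step (0.00).

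Larger changes were fewer. At least 1.5-fold, 10 of the 30 were higher and 4 lower in VCaP-CT than in VCaP-T, where 18.0% and 19.2% of all genes passed this stricter call. The direct ENZ step gave 8 higher and 4 lower (14.4% and 17.2% of all genes). The bicalutamide step gave 2 higher and 1 lower (8.23% and 13.6%), the smallest change of the set. The later ENZ step gave 3 higher and 2 lower (8.30% and 8.01%). Against VCaP-T, VCaP-CT-ER had 10 higher and 3 lower (19.3% and 22.5%), and VCaP-CT-BR-ER had 11 higher and 5 lower (20.2% and 24.2%).

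**Figure D2:**
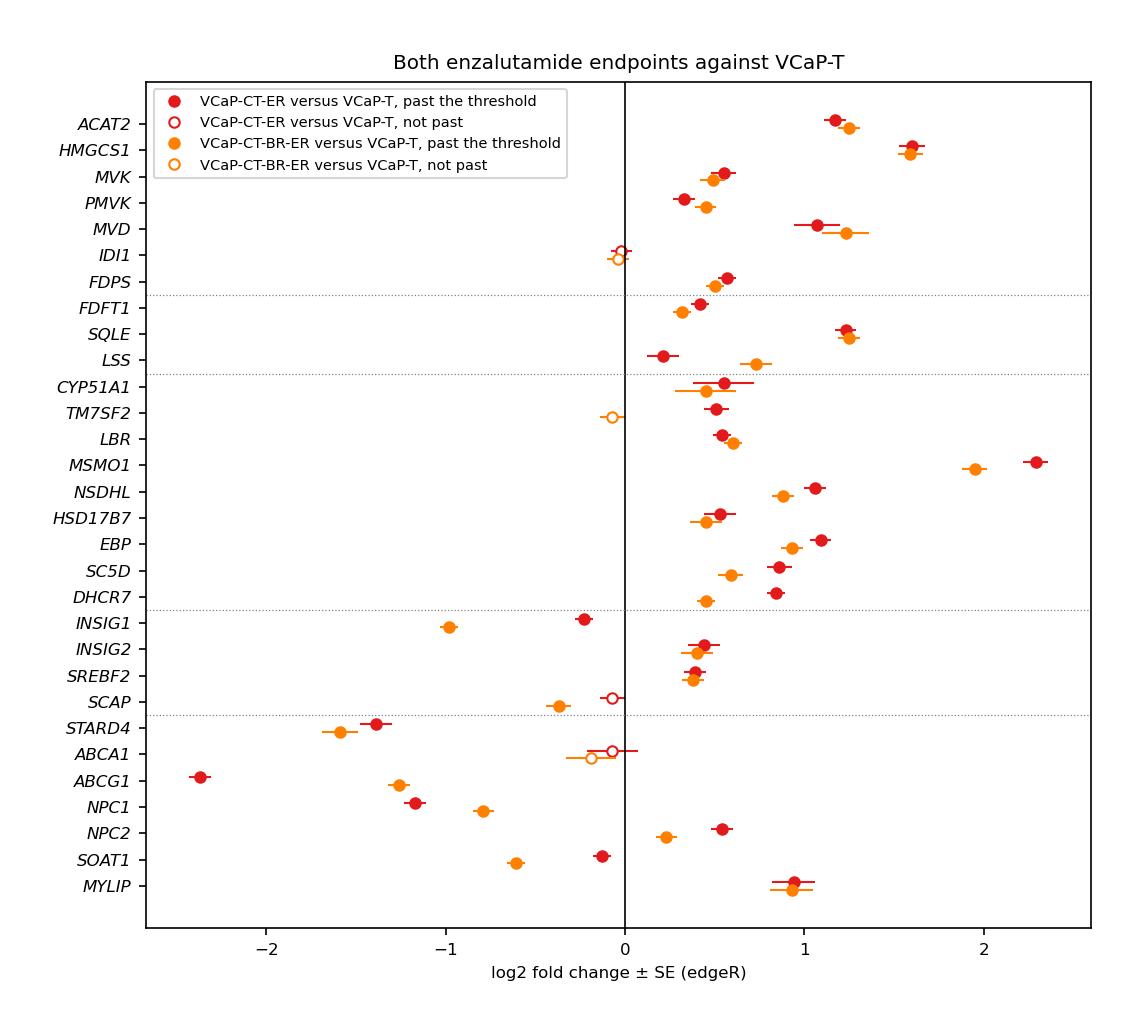
Log2 fold change with standard error (edgeR, 3 libraries per subline) of the 30 genes in each ENZ-grown subline (VCaP-CT-ER or VCaP-CT-BR-ER) against VCaP-T, grouped by role with dotted lines; filled points passed an adjusted p of 0.05. Every filled point of the 19 enzymes lies right of 0, and STARD4, ABCG1, NPC1, INSIG1 and SOAT1 lie left of it in both comparisons.

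In the mevalonate branch, 6 of 7 enzymes were higher in VCaP-CT and both ENZ-grown sublines than in VCaP-T. The share of all tested genes above VCaP-T was 33.1% for VCaP-CT, 34.3% for VCaP-CT-ER and 34.9% for VCaP-CT-BR-ER. HMGCS1, the HMG-CoA synthase (chr5:43289395-43313512, minus strand), held 84.8, 92.6 and 91.9 CPM in VCaP-T and 152, 128 and 147 CPM in VCaP-CT. It held 267, 253 and 295 CPM in VCaP-CT-ER, 182, 168 and 173 CPM in VCaP-CT-BR, and 271, 263 and 277 CPM in VCaP-CT-BR-ER. Every VCaP-T library lay below every other, and the ENZ-grown sublines stood highest and overlapped each other. The log2 rise was 0.93 ± 0.06 (SE) in the direct ENZ step (edgeR adjusted p = 5.49e-11) and 0.63 ± 0.06 in the later ENZ step (6.26e-08). Against VCaP-T HMGCS1 was 3.03-fold higher in VCaP-CT-ER (log2 1.6 ± 0.07, edgeR adjusted p = 4.35e-15) and 3.01-fold higher in VCaP-CT-BR-ER (1.59 ± 0.07, 4.71e-15).

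ACAT2, the cytosolic acetoacetyl-CoA thiolase that opens the route, held 37.5, 33.9 and 35.1 CPM in VCaP-T and 77.7, 66.6 and 77.5 CPM in VCaP-CT. Its level was 75.6 to 86.0 CPM in VCaP-CT-ER, 96.4 to 99.8 CPM in VCaP-CT-BR and 81.6 to 86.3 CPM in VCaP-CT-BR-ER. It rose by 1.06 ± 0.06 on the log2 scale under ADT (edgeR adjusted p = 6.65e-12) and by 0.41 ± 0.06 in the bicalutamide step (1.25e-05), and fell by 0.22 ± 0.06 in the later ENZ step (0.00682). The direct ENZ step gave 0.11 and did not pass (edgeR adjusted p = 0.138), but passed when scaled by library size alone (0.16, edgeR adjusted p = 0.025). ACAT2 shared 52.3% of its exon bases with genes on the other strand, TCP1 among them, and counting ignored strand. MVD, the mevalonate diphosphate decarboxylase, also rose under ADT, at a low level, with 5.58 to 7.16 CPM in VCaP-T, 11.9 to 16.3 CPM in VCaP-CT, 11.3 to 15.4 CPM in VCaP-CT-ER, 9.59 to 12.5 CPM in VCaP-CT-BR and 14.4 to 16.6 CPM in VCaP-CT-BR-ER. MVD rose by 1.16 ± 0.13 under ADT (edgeR adjusted p = 1.52e-07) and by 0.45 ± 0.13 in the later ENZ step (0.00578). The fall of MVD in the bicalutamide step, -0.38, was lost without VCaP-CT replicate 1 (-0.33), VCaP-CT replicate 2 (-0.27) or VCaP-CT-BR replicate 1 (-0.29).

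The kinases MVK and PMVK and the farnesyl diphosphate synthase FDPS changed less. Against VCaP-T, MVK was higher by 0.55 in VCaP-CT-ER and by 0.49 in VCaP-CT-BR-ER, PMVK by 0.33 and 0.45, and FDPS by 0.57 and 0.50 on the log2 scale. IDI1, which isomerizes the isoprenoid unit, was the enzyme that did not pass in either comparison, at -0.02 and -0.04. It held 127 to 131 CPM in VCaP-T, 95.6 to 108 CPM in VCaP-CT, 121 to 135 CPM in VCaP-CT-ER, 124 to 134 CPM in VCaP-CT-BR and 120 to 131 CPM in VCaP-CT-BR-ER, so that VCaP-CT alone stood low. FDPS and IDI1 have 8 and 3 named pseudogenes in the annotation, and their counts are uncertain to that extent.

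The steps from farnesyl diphosphate to lanosterol gave 3 different courses. SQLE, the squalene epoxidase and a rate-limiting step of the late pathway, made most of its rise under ADT. It held 100, 112 and 103 CPM in VCaP-T, 199, 176 and 190 CPM in VCaP-CT, 246, 230 and 264 CPM in VCaP-CT-ER, 226, 210 and 211 CPM in VCaP-CT-BR and 251, 243 and 256 CPM in VCaP-CT-BR-ER. SQLE was 2.35-fold higher in VCaP-CT-ER (log2 1.23 ± 0.06, edgeR adjusted p = 6.92e-14) and 2.38-fold higher in VCaP-CT-BR-ER (1.25 ± 0.06, 5.4e-14) than in VCaP-T. The small rise of SQLE in VCaP-CT-BR over VCaP-CT, 0.19, no longer passed without VCaP-CT-BR replicate 1 (edgeR adjusted p = 0.051).

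FDFT1, the squalene synthase, fell under ADT and rose with ENZ. It held 139, 141 and 129 CPM in VCaP-T, 106, 106 and 108 CPM in VCaP-CT, 181, 176 and 190 CPM in VCaP-CT-ER, 112, 109 and 106 CPM in VCaP-CT-BR and 168, 170 and 172 CPM in VCaP-CT-BR-ER. Both ENZ-grown sublines lay above all others, and VCaP-CT and VCaP-CT-BR overlapped. The log2 rise was 0.78 ± 0.05 in the direct ENZ step (edgeR adjusted p = 5.56e-12) and 0.64 ± 0.05 in the later ENZ step (4.47e-10). LSS, the lanosterol synthase, held 13.5 to 17.1 CPM in VCaP-T, 27.6 to 35.5 CPM in VCaP-CT, 17.3 to 18.3 CPM in VCaP-CT-ER, 21.8 to 24.0 CPM in VCaP-CT-BR and 24.7 to 25.9 CPM in VCaP-CT-BR-ER. It rose by 0.99 under ADT and fell by 0.77 ± 0.09 in the direct ENZ step (edgeR adjusted p = 1.81e-07). The difference of LSS between VCaP-CT-ER and VCaP-T, 0.21 (edgeR adjusted p = 0.0444), was lost when any of 5 libraries was left out (replicates 1 and 2 of VCaP-T and all 3 of VCaP-CT-ER, adjusted p 0.0618 to 0.233).

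In each of the 4 steps the median change of neighbouring genes had the sign of the change of FDFT1 and of LSS. This also held for MVD, TM7SF2 and FDPS. Some of these medians lay close to 0, such as 0.03 around FDPS in the direct ENZ step. The 29 tested genes within 5 Mb of FDFT1 on chromosome 8 had a median log2 change of -1.04 in VCaP-CT against VCaP-T, 0.96 in the direct ENZ step, 0.01 in the bicalutamide step and 0.63 in the later ENZ step, beside -0.36, 0.78, 0.04 and 0.64 for FDFT1 itself. The 88 around LSS on chromosome 21 had medians of 0.75, -0.59, -0.35 and 0.18 in the same order, beside 0.99, -0.77, -0.41 and 0.16 for LSS. With a window of 2 Mb the medians were -1.18, 1.18, 0.08 and 0.60 for 18 genes around FDFT1, and 0.91, -0.59, -0.37 and 0.18 for 45 around LSS. Against VCaP-T, FDFT1 was higher by 0.42 in VCaP-CT-ER and by 0.32 in VCaP-CT-BR-ER, beside 5 Mb medians of -0.08 and -0.48. LSS was higher by 0.21 and 0.73, beside 0.11 and 0.60. Around SQLE, 45 genes within 5 Mb had medians between -0.12 and 0.09 in the 4 steps. The part of the neighbourhood in these changes was not tested.

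**Figure D3:**
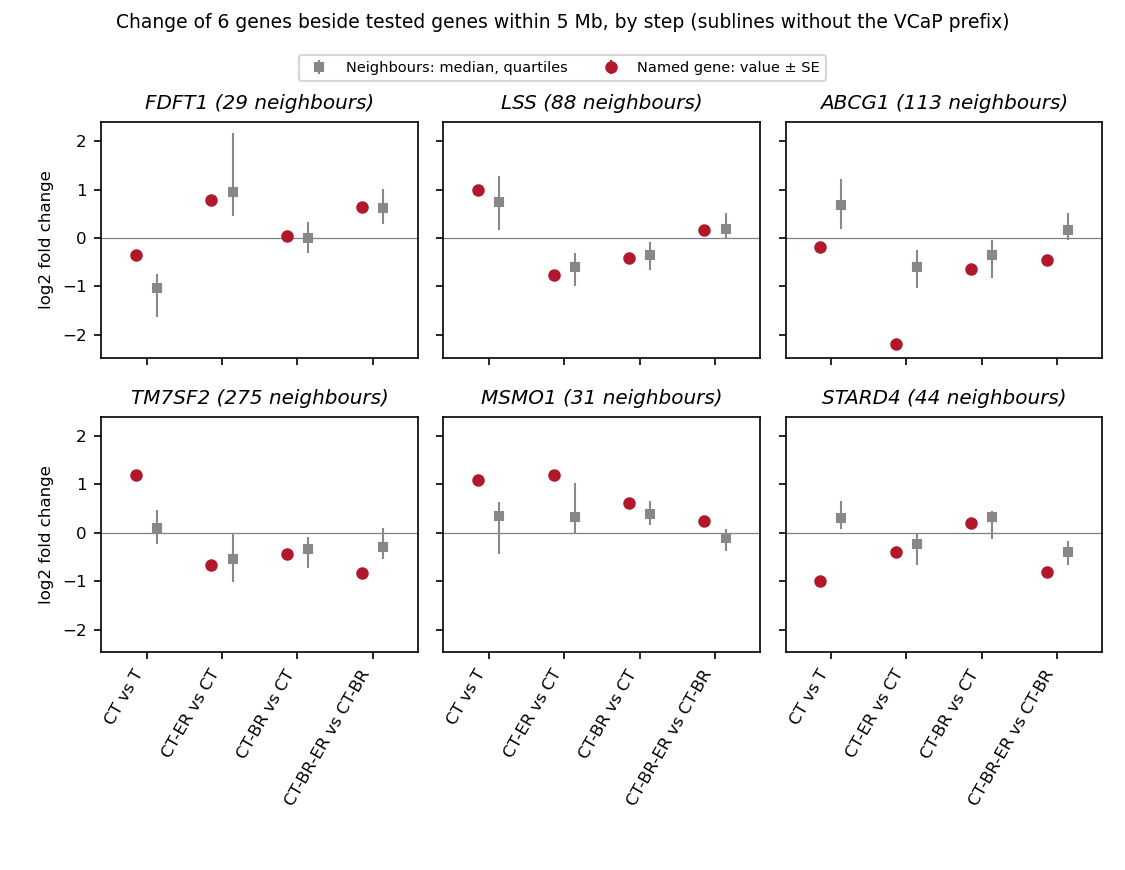
Log2 fold change of 6 genes (red, ± SE from edgeR, mostly smaller than the point) and median with quartiles over the tested genes within 5 Mb (grey) in the 4 steps between sublines. FDFT1, LSS and TM7SF2 take the sign of their neighbours' median in all 4 steps, whereas MSMO1 lies above its neighbours' median and ABCG1 below it in every step.

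From lanosterol to cholesterol, all 9 enzymes were higher in VCaP-CT-ER than in VCaP-T (34.3% of all genes), and 8 of 9 in VCaP-CT-BR-ER (34.9%). MSMO1, a sterol oxidase that takes part in removal of methyl groups from the sterol ring, showed the largest rise of the 30 genes in both comparisons with VCaP-T (chr4:165327623-165343160, plus strand). It held 66.1, 68.5 and 58.7 CPM in VCaP-T and 138, 128 and 146 CPM in VCaP-CT. It then held 300, 300 and 342 CPM in VCaP-CT-ER, 218, 204 and 206 CPM in VCaP-CT-BR and 248, 245 and 254 CPM in VCaP-CT-BR-ER, and no 2 sublines overlapped. MSMO1 rose by 1.09 ± 0.06 on the log2 scale under ADT (edgeR adjusted p = 4.03e-12), by 1.19 ± 0.06 with ENZ (7.15e-13) and by 0.61 ± 0.06 with bicalutamide (6.61e-08). Against VCaP-T it was 4.87-fold higher in VCaP-CT-ER (log2 2.29 ± 0.07, edgeR adjusted p = 1.17e-17) and 3.87-fold higher in VCaP-CT-BR-ER (1.95 ± 0.07, 1.43e-16). The 31 neighbours of MSMO1 had medians of 0.34, 0.33, 0.40 and -0.10 in the 4 steps.

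NSDHL, which acts next to MSMO1, the isomerase EBP and the last reductase DHCR7 rose mainly with ENZ. EBP held 42.8 to 47.3 CPM in VCaP-T, 56.3 to 60.8 CPM in VCaP-CT, 92.7 to 100 CPM in VCaP-CT-ER, 63.9 to 67.4 CPM in VCaP-CT-BR and 81.3 to 90.6 CPM in VCaP-CT-BR-ER. DHCR7 held 111 to 121 CPM in VCaP-T, 119 to 136 CPM in VCaP-CT, 205 to 221 CPM in VCaP-CT-ER, 114 to 124 CPM in VCaP-CT-BR and 157 to 165 CPM in VCaP-CT-BR-ER, so that only the ENZ-grown sublines left the range of the others. The log2 change with ENZ was 0.77 for NSDHL, 0.70 for EBP and 0.72 for DHCR7 in the direct ENZ step, and 0.39, 0.38 and 0.43 in the later ENZ step. With bicalutamide it was 0.20, 0.17 and -0.10, and the calls of NSDHL and EBP in that step were lost when single libraries were left out: VCaP-CT replicate 2 or VCaP-CT-BR replicate 1 or 2 for NSDHL (adjusted p 0.0584, 0.0506 and 0.0652 by edgeR), and VCaP-CT-BR replicate 1 for EBP (0.0662).

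SC5D, the lathosterol oxidase, rose with either blocker. It held 67.1 to 74.9 CPM in VCaP-T, 68.9 to 79.3 CPM in VCaP-CT, 121 to 146 CPM in VCaP-CT-ER, 106 to 116 CPM in VCaP-CT-BR and 106 to 113 CPM in VCaP-CT-BR-ER. The log2 rise was 0.79 ± 0.07 in the direct ENZ step (edgeR adjusted p = 3.1e-09) and 0.55 ± 0.07 in the bicalutamide step (1.34e-06), and the later ENZ step gave -0.02. HSD17B7, the ketosteroid reductase of the route, held 7.04 to 8.18 CPM in VCaP-T, 11.8 to 12.6 CPM in VCaP-CT and 7.64 to 9.41 CPM in VCaP-CT-BR. It fell by 0.53 ± 0.09 with bicalutamide (edgeR adjusted p = 3.36e-05), and 2 pseudogenes carry its name. CYP51A1, the lanosterol demethylase, had 173 to 542 counts per library and shared 82.2% of its exon bases with LRRD1 and CYP51A1-AS1, and the counting by default leaves out fragments that fall on several genes. It held 4.48 to 6.51 CPM in VCaP-CT-BR and 8.47 to 10.1 CPM in VCaP-CT-BR-ER, a log2 rise of 0.73 ± 0.18 (edgeR adjusted p = 0.00203). Its other calls, 0.51 in the direct ENZ step and 0.55 and 0.45 against VCaP-T, were lost when certain single libraries were left out, the lowest value being 0.26 in VCaP-CT-BR-ER against VCaP-T without VCaP-T replicate 2.

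TM7SF2 and LBR encode alternative sterol reductases for the step after CYP51A1, and LBR is also a receptor of the nuclear lamina. TM7SF2 had the highest level of the 30 genes per kilobase of exon in all sublines but VCaP-CT-BR-ER, where PMVK held 128 CPM per kb. Per kilobase it held 103 CPM in VCaP-T, 234 CPM in VCaP-CT, 147 CPM in VCaP-CT-ER, 174 CPM in VCaP-CT-BR and 98.0 CPM in VCaP-CT-BR-ER, and LBR held 22.5, 22.1, 32.7, 38.8 and 34.1 CPM in the same order. TM7SF2 (chr11:65111845-65116384, plus strand) held 369, 332 and 352 CPM in VCaP-T, 801, 871 and 725 CPM in VCaP-CT, 525, 510 and 469 CPM in VCaP-CT-ER, 540, 639 and 601 CPM in VCaP-CT-BR and 322, 359 and 320 CPM in VCaP-CT-BR-ER. It was highest in VCaP-CT, and VCaP-CT-BR-ER overlapped VCaP-T. TM7SF2 rose 2.28-fold under ADT (log2 1.19 ± 0.07, edgeR adjusted p = 4.86e-12). It fell by 0.67 ± 0.07 with ENZ (edgeR adjusted p = 4.29e-08), by 0.43 ± 0.07 with bicalutamide (2.84e-05) and by 0.83 ± 0.07 with ENZ after bicalutamide (5.39e-09).

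LBR took the opposite course in the direct ENZ and bicalutamide steps. It held 113, 122 and 119 CPM in VCaP-T, 119, 110 and 118 CPM in VCaP-CT, 170, 166 and 179 CPM in VCaP-CT-ER, 213, 196 and 203 CPM in VCaP-CT-BR and 186, 173 and 180 CPM in VCaP-CT-BR-ER. Its log2 rise was 0.57 in the direct ENZ step and 0.81 ± 0.05 in the bicalutamide step (edgeR adjusted p = 3.78e-11 for the latter). In the later ENZ step LBR also fell, by 0.19. The 275 tested neighbours of TM7SF2 within 5 Mb had medians of 0.10, -0.55, -0.33 and -0.29 in the 4 steps. The 146 within 2 Mb had medians of 0.24, -0.74, -0.37 and -0.45. The 89 around LBR within 5 Mb had medians of -0.08, -0.15, -0.03 and 0.04. The part of these neighbours in the changes was not tested.

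**Figure D4:**
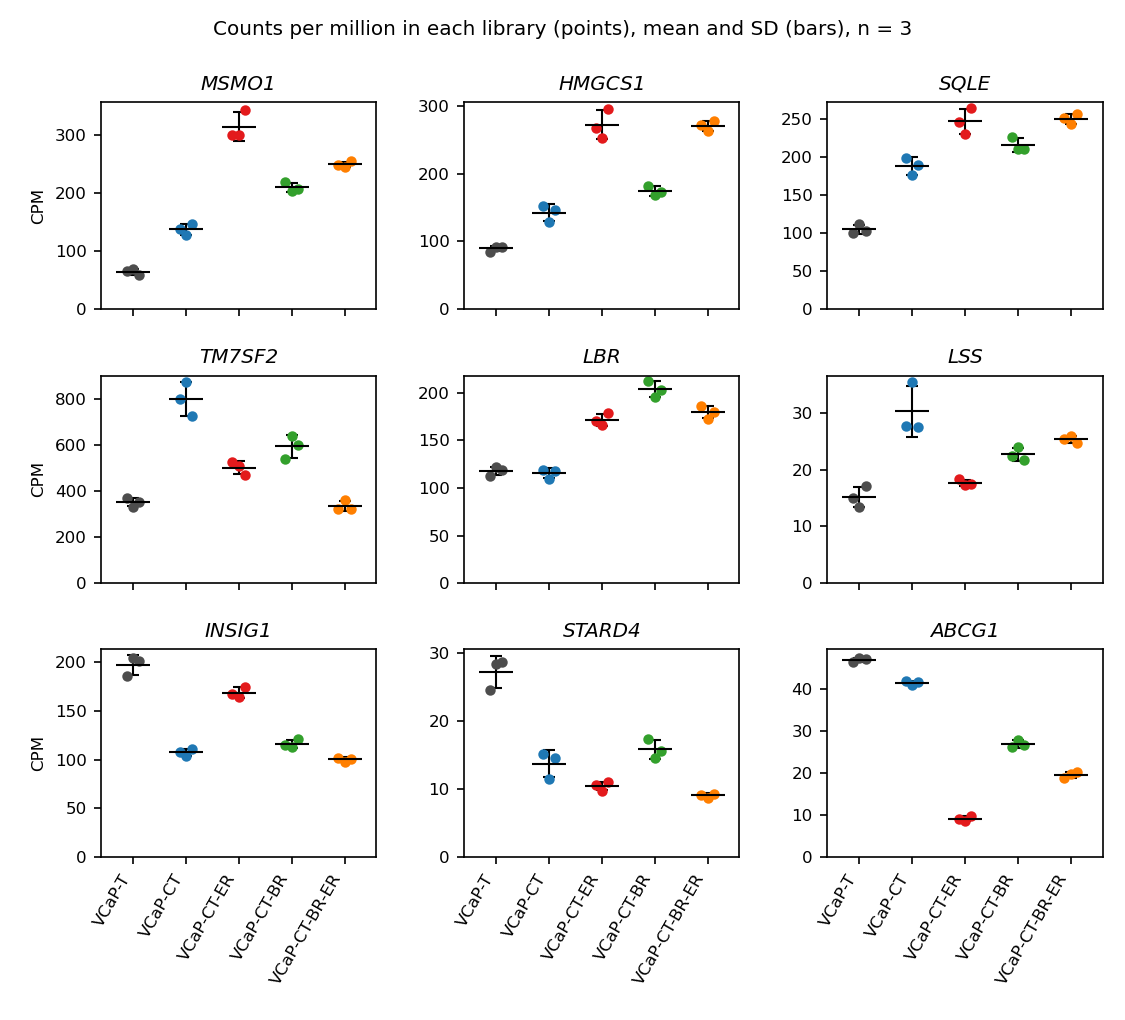
CPM of 9 genes in each library (points, 3 per subline), with the mean (wide bar) and SD (error bar) of each subline; every axis starts at 0. MSMO1, HMGCS1 and SQLE stand above VCaP-T in every derived subline, TM7SF2 peaks in VCaP-CT at 725 to 871 CPM, and ABCG1 is lowest in VCaP-CT-ER at 8.59 to 9.69 CPM.

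The sterol-sensing genes did not move with the enzymes as a group. INSIG1, which holds SCAP in the endoplasmic reticulum and is itself switched on by SREBP, was highest in VCaP-T. It held 186, 205 and 202 CPM in VCaP-T, 108, 104 and 111 CPM in VCaP-CT, 168, 164 and 175 CPM in VCaP-CT-ER, 115, 113 and 121 CPM in VCaP-CT-BR and 102, 97.7 and 101 CPM in VCaP-CT-BR-ER. Only VCaP-CT-ER came back toward the VCaP-T level. INSIG1 fell by 0.88 ± 0.05 under ADT (edgeR adjusted p = 1.39e-12), and rose by 0.66 in the direct ENZ step. Against VCaP-T its log2 change was -0.23 ± 0.05 in VCaP-CT-ER (edgeR adjusted p = 0.000282) and -0.98 ± 0.05 in VCaP-CT-BR-ER (edgeR adjusted p = 1.4e-13).

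SREBF2, which encodes SREBP2, held 361 to 399 CPM in VCaP-T, 447 to 517 CPM in VCaP-CT, 472 to 517 CPM in VCaP-CT-ER, 338 to 378 CPM in VCaP-CT-BR and 483 to 499 CPM in VCaP-CT-BR-ER. Its log2 change was 0.35 under ADT, 0.04 with ENZ, -0.41 with bicalutamide and 0.44 with ENZ after bicalutamide, and the ENZ step from VCaP-CT did not pass. For SREBF2 VCaP-CT-BR thus overlapped VCaP-T, while its enzyme sum exceeded that of VCaP-T. SCAP held 104 to 130 CPM in VCaP-T, VCaP-CT and VCaP-CT-ER, and 78.1 to 99.3 CPM in VCaP-CT-BR together with VCaP-CT-BR-ER. Its change of -0.42 with bicalutamide and of -0.37 in VCaP-CT-BR-ER against VCaP-T passed the test. INSIG2 was 0.40 to 0.46 higher in VCaP-CT and both ENZ-grown sublines than in VCaP-T, at 10.3 to 16.4 CPM in all libraries of these 4 sublines.

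Among the genes that move or store cholesterol, STARD4, ABCG1, NPC1 and SOAT1 were lower in both ENZ-grown sublines than in VCaP-T, and NPC2 and MYLIP were higher. In each comparison 57.1% of the 7 genes were lower and 28.6% higher. Over all genes 34.7% were lower and 34.3% higher in VCaP-CT-ER, and 35.3% and 34.9% in VCaP-CT-BR-ER. The call of SOAT1 in VCaP-CT-ER did not hold in every setting. STARD4, a soluble sterol carrier, held 24.5, 28.4 and 28.6 CPM in VCaP-T, 15.1, 11.4 and 14.5 CPM in VCaP-CT, 10.5, 9.73 and 11 CPM in VCaP-CT-ER, 17.3, 14.6 and 15.5 CPM in VCaP-CT-BR and 9.13, 8.70 and 9.31 CPM in VCaP-CT-BR-ER. It fell by 0.99 ± 0.09 under ADT (edgeR adjusted p = 6.96e-09) and by 0.80 ± 0.10 in the later ENZ step (1.09e-06). Against VCaP-T it stood 2.62-fold lower in VCaP-CT-ER (log2 -1.39 ± 0.09, edgeR adjusted p = 2.43e-11) and 3.01-fold lower in VCaP-CT-BR-ER (-1.59 ± 0.10, 3.74e-12). Its 44 neighbours had medians of 0.30, -0.24, 0.33 and -0.40 in the 4 steps.

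ABCG1, a sterol exporter (chr21:42199689-42297244, plus strand), showed the largest fall of the 30 genes. It held 46.4, 47.3 and 47.1 CPM in VCaP-T, 41.8, 40.8 and 41.6 CPM in VCaP-CT, 8.93, 8.59 and 9.69 CPM in VCaP-CT-ER, 26.1, 27.8 and 26.5 CPM in VCaP-CT-BR and 18.8, 19.7 and 20.2 CPM in VCaP-CT-BR-ER, with no overlap between sublines. The fall in the direct ENZ step was 4.57-fold (log2 -2.19 ± 0.06, edgeR adjusted p = 1.32e-17). With bicalutamide the log2 change was -0.63 ± 0.06 (edgeR adjusted p = 7.55e-09), and in the later ENZ step it was -0.46 ± 0.06 (1.45e-06). Against VCaP-T ABCG1 stood 5.19-fold lower in VCaP-CT-ER (log2 -2.37 ± 0.06, edgeR adjusted p = 1.35e-18) and 2.40-fold lower in VCaP-CT-BR-ER (-1.26 ± 0.06, 2.02e-14). The 113 neighbours on chromosome 21 had medians of 0.69, -0.59, -0.36 and 0.16 in the 4 steps, and their part was not tested. ABCA1, the other exporter, was scarce, at 63 to 117 counts per library. It held 1.79 to 2.09 CPM in VCaP-T, 2.96 to 3.53 CPM in VCaP-CT, 1.75 to 1.97 CPM in VCaP-CT-ER, 2.26 to 2.69 CPM in VCaP-CT-BR and 1.53 to 1.84 CPM in VCaP-CT-BR-ER, and fell by 0.79 ± 0.13 with ENZ (edgeR adjusted p = 1.95e-05), by 0.42 ± 0.13 with bicalutamide (0.00833) and by 0.49 ± 0.14 with ENZ after bicalutamide (0.00627).

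NPC1 and NPC2 together release cholesterol from lysosomes, and they parted. NPC1 held 46.4 to 51.3 CPM in VCaP-T and 22.0 to 29.6 CPM in all other libraries, and NPC2 held 43.5 to 48.8 CPM in VCaP-T, 63.5 to 72.1 CPM in VCaP-CT-ER and 39.2 to 40.2 CPM in VCaP-CT-BR. NPC1 fell by 0.90 ± 0.06 under ADT (edgeR adjusted p = 1.07e-11) and its log2 change in VCaP-CT-ER against VCaP-T was -1.17 ± 0.06 (edgeR adjusted p = 7.06e-14). SOAT1, which esterifies cholesterol for storage, held 159 to 172 CPM in VCaP-T, 99.3 to 108 CPM in VCaP-CT, 143 to 160 CPM in VCaP-CT-ER, 116 to 127 CPM in VCaP-CT-BR and 105 to 112 CPM in VCaP-CT-BR-ER. It fell by 0.67 ± 0.05 under ADT (edgeR adjusted p = 7.15e-10). Its difference of -0.13 between VCaP-CT-ER and VCaP-T (edgeR adjusted p = 0.0354) was lost when replicate 1 or 2 of either subline was left out, and that of -0.17 in the later ENZ step without VCaP-CT-BR replicate 1 (-0.13) or VCaP-CT-BR-ER replicate 1 (-0.16) or 2 (-0.14). MYLIP, a ubiquitin ligase that sends lipoprotein receptors to degradation, held 3.46 to 4.36 CPM in VCaP-T, 6.22 to 6.90 CPM in VCaP-CT, 6.66 to 7.79 CPM in VCaP-CT-ER, 8.66 to 9.52 CPM in VCaP-CT-BR and 6.46 to 8.60 CPM in VCaP-CT-BR-ER. With bicalutamide MYLIP rose by 0.46 ± 0.11 (edgeR adjusted p = 0.0014). Its change of -0.35 in the later ENZ step was lost without VCaP-CT-BR replicate 3 (-0.32) or VCaP-CT-BR-ER replicate 1 (-0.27) or 2 (-0.28).

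The later and the direct ENZ step differed for 19 of the 30 genes. As the labels of VCaP-CT-BR also name ENZ, earlier bicalutamide and earlier ENZ cannot be told apart here. In the test of that difference, the later step minus the direct step, 6 genes were higher and 13 lower, with 25.2% and 24.5% of all genes. At least 1.5-fold, 2 were higher and 5 lower (15.6% and 13.2% of all genes). MSMO1 rose by 1.19 in the ENZ step without bicalutamide and by 0.25 after it, a difference of -0.94 ± 0.09 (edgeR adjusted p = 1.75e-08). SC5D (0.79 and -0.02) differed by -0.81 ± 0.10 (edgeR adjusted p = 7.23e-07), and LBR (0.57 and -0.19) by -0.75 ± 0.07 (2.16e-08). INSIG1 rose by 0.66 without bicalutamide and fell by 0.21 after it, a difference of -0.87 ± 0.07 (edgeR adjusted p = 1.62e-09). ABCG1 fell by 2.19 without bicalutamide and by 0.46 after it, a difference of 1.74 ± 0.08 (edgeR adjusted p = 5.07e-13), with 0.73 as the median over its 113 neighbours. LSS (-0.77 and 0.16) differed by 0.93 ± 0.13 (edgeR adjusted p = 2.95e-06), with a median of 0.75 over its 88 neighbours. FDFT1 did not pass in this test, at -0.14 ± 0.07 (edgeR adjusted p = 0.0832), nor did TM7SF2, at -0.16 ± 0.10 (0.202).

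Other genes of sterol and isoprenoid metabolism were counted from 4 lists, 47 genes of which 42 were tested. CYP27A1, CYP7B1, CH25H, SOAT2 and ABCG4 were too low to test. Of the 42, 14 rose and 17 fell under ADT, 14 rose and 19 fell in the direct ENZ step, 14 rose and 14 fell in the bicalutamide step, and 13 rose and 12 fell in the later ENZ step. The rises were 33.3% of the 42 in the ADT step (33.1% of all genes) and 33.3% in the direct ENZ step (29.6%), 33.3% in the bicalutamide step (26.1%) and 31% in the later ENZ step (21.2%), and the falls were 40.5% (32.2%), 45.2% (31.2%), 33.3% (27.0%) and 28.6% (21.7%). Against VCaP-T, 19 were higher and 16 lower in VCaP-CT-ER, and 15 were higher and 19 lower in VCaP-CT-BR-ER, and 11 and 12 passed in the difference of the ENZ steps, beside 34.3% and 34.7%, 34.9% and 35.3%, and 25.2% and 24.5% of all genes higher and lower in these 3 comparisons. Their median log2 change lay between -0.12 and 0.06 in the 7 comparisons. Of the 11 genes of the isoprenoid branch, which prenylates proteins and makes ubiquinone and dolichol, 8 were higher and 2 lower in VCaP-CT-ER than in VCaP-T, and 6 higher and 2 lower in VCaP-CT-BR-ER. Of 10 genes that process SREBP or degrade sterol-regulated proteins, 4 were higher and 4 lower in VCaP-CT-ER, and 4 higher and 5 lower in VCaP-CT-BR-ER. Of 8 tested oxysterol receptors, binding proteins and enzymes, 2 were higher and 4 lower in VCaP-CT-ER, and 2 higher and 6 lower in VCaP-CT-BR-ER.

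The lipoprotein receptor VLDLR, in the list of 13 tested genes of uptake, transfer and esters, gave the largest change of the 42 genes in the direct ENZ step. It held 47.2 to 48.0 CPM in VCaP-T, 10.1 to 11.4 CPM in VCaP-CT, 99.4 to 107 CPM in VCaP-CT-ER, 8.87 to 9.80 CPM in VCaP-CT-BR and 31 to 33.8 CPM in VCaP-CT-BR-ER. VLDLR fell by 2.14 ± 0.06 under ADT (edgeR adjusted p = 3.12e-17), and rose by 3.25 ± 0.06 with ENZ (4.56e-20) and by 1.82 ± 0.06 with ENZ after bicalutamide (3.32e-15). LRP1, a scavenger receptor, held 115 to 143 CPM in VCaP-CT and fell by 1.71 ± 0.10 in the direct ENZ step (edgeR adjusted p = 6.02e-12) and by 1.76 ± 0.10 in the bicalutamide step (1.51e-11). LRP8, a receptor of the same family, rose most under ADT, from 11.5 to 12.8 CPM in VCaP-T to 30.6 to 31.4 CPM in VCaP-CT (1.35 ± 0.06, edgeR adjusted p = 2.54e-14), and was 1.5 higher in VCaP-CT-BR-ER than in VCaP-T. GRAMD1B, which carries cholesterol from the plasma membrane to the endoplasmic reticulum, held 3.11 to 3.63 CPM in VCaP-T, 0.46 to 0.844 CPM in VCaP-CT-ER and 0.146 to 0.315 CPM in VCaP-CT-BR-ER, a log2 change of -2.39 and -3.79. GRAMD1B had as few as 6 counts in a library. CAV1, the caveolin of membrane pits, was called in the direct ENZ step (2.03 ± 0.34, edgeR adjusted p = 2.33e-05) and was highest there at 0.911 to 1.27 CPM, with as few as 4 counts in a library.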

How the data were processed

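Processing notes and headers give STAR 2.5.4b, GRCh38, featureCounts 1.6.2 and GENCODE 28; the authors deposited raw counts of fragments per gene, from paired reads without regard to strand, and no option for reads on several genes or sites is in the headers. Sublines and replicates came from the sample titles. Symbols were matched for 57754 of 58381 identifiers (98.9%). The 30 genes and all lists were chosen with earlier results of these data known.

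edgeR 4.0.16 (R 4.3.3) was run with filterByExpr at a minimum count of 10, TMM, 1 term per subline over all 15 libraries and two-sided quasi-likelihood tests, adjusted by Benjamini-Hochberg over 19621 genes at 0.05. SE is the log2 change divided by the root of F. Totals of 33.7 M to 46.9 M fragments bound the precision, and p-values cover the spread between libraries only. The fit was tested on simulated data. All 30 genes are reported, with full statistics for at most 4 rising and 4 falling genes per comparison, by size of change; genes of the other lists are named only for the largest called change up and down. Neighbours are tested genes starting within 5 Mb. Promoters came from RefSeq (GRCh38.p14). Alternatives were DESeq2 1.42.0, other scalings and filters, fits of the compared sublines alone, a replicate block, each library left out and a 1.5-fold call. Levels and figures were made with Python, pandas and matplotlib. 1 marker gene of the luminal list is not reported here. Other experiments of the study were not analysed here.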

Additional observations from a re-analysis of the deposited data

Results flagged for a closer look

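The later and the direct ENZ step differed for 19 of the 30 genes by edgeR's test of the difference itself. The test took the later step minus the direct step, with all genes adjusted together. How far VCaP-CT-BR, the start of the later step, had met ENZ is unclear from its labels. As 25.2% and 24.5% of all tested genes were also called higher or lower in this difference, a call alone does not set a gene apart. In the enzymes of the sterol ring the difference was -0.94 for MSMO1, -0.81 for SC5D, -0.75 for LBR, -0.38 for NSDHL, -0.32 for EBP, -0.29 for DHCR7 and 0.45 for HSD17B7 on the log2 scale. In earlier enzymes it was -0.33 for ACAT2, -0.30 for HMGCS1, -0.34 for IDI1, 0.54 for MVD and 0.93 for LSS. The call of MVD was lost without VCaP-CT replicate 1 (0.48) or replicate 2 (0.43). Among sterol sensors it was -0.87 for INSIG1 and 0.40 for SREBF2. Among genes of transport and storage it was 1.74 for ABCG1, -0.70 for SOAT1, -0.48 for MYLIP, -0.41 for STARD4 and 0.28 for NPC1. The call of STARD4 was lost without VCaP-CT-BR replicate 1 (-0.34), and that of NPC1 without the filter on low counts (edgeR adjusted p = 0.0506). All 12 libraries of the 4 sublines enter each difference, and each subline was derived once. The starting levels also differed: in the bicalutamide step, before the later ENZ step, MSMO1 had risen by 0.61, SC5D by 0.55 and LBR by 0.81, and ABCG1 had fallen by 0.63.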

How the results depend on the processing

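Over 210 log2 fold changes, 3120 alternative values were computed: 3055 kept their call, 42 no longer passed and 23 newly passed. Where the main or the alternative value passed, 0 changed sign. Changes of sign between values that both did not pass were not counted. The number of genes called moved by more than 1.5 times only under the 1.5-fold call, to 10 higher and 4 lower for VCaP-CT against VCaP-T, 8 higher for VCaP-CT-ER against VCaP-CT, 2 higher and 1 lower for VCaP-CT-BR against VCaP-CT, 3 higher and 2 lower for VCaP-CT-BR-ER against VCaP-CT-BR, 10 higher and 3 lower for VCaP-CT-ER against VCaP-T, 11 higher for VCaP-CT-BR-ER against VCaP-T, and 2 higher and 5 lower in the difference of the ENZ steps. With each library left out in turn, VCaP-CT-BR against VCaP-CT varied most, with 8 to 12 higher and 8 to 11 lower. The calls of LSS and SOAT1 in VCaP-CT-ER against VCaP-T were also lost under other settings, LSS with DESeq2 (adjusted p = 0.0548) and SOAT1 with library size alone (adjusted p = 0.124 by edgeR). The cause was not tested.

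Replicate numbers did not pair the samples: deviations from the subline means correlated over 0.1 in 2 of 30 same-numbered pairs, with a mean of -0.006 against 0.003 for other pairs. With the number as a replicate block, 12 genes in place of 11 rose from VCaP-CT to VCaP-CT-BR (INSIG1 added, 0.12), and 21 in place of 22 were higher in VCaP-CT-ER than in VCaP-T (LSS lost, 0.21). The other counts were the same.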
